A study of Homo sapiens with 6 samples.

Results

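The 10 genes described here encode the DNA-binding subunits of the transcription factor NF-kB and the proteins that restrain it. They were chosen by name: the subunit genes NFKB1, NFKB2, RELA and RELB, the inhibitor genes NFKBIA, NFKBIB and NFKBIE, the A20 gene TNFAIP3, its partner gene TNIP1, and BCL3. All 10 were found among the 62700 human genes of the deposited table, and all 10 passed the filter on low values, with at least 1 FPKM in each of the 6 libraries. FPKM count fragments relative to the length of the gene and to the size of the library. Levels of different genes can be set side by side only as far as the gene lengths used are right. The cells were A549, a cell line long established from a human lung adenocarcinoma, epithelial in type and grown in medium with serum. The labels name no cytokine or other stimulus. In the 3 sgControl libraries the guide RNA was a control, and their genotype label is wild type. The 3 sgH2AC19 libraries come from derivatives described as knockouts, made with a guide against H2AC19, one of the clustered genes that supply histone H2A during DNA replication, and the series as a whole concerns lung adenocarcinoma and angiogenesis. The labels do not say how many guides were used, whether the cells were a clone or a pool, or whether replicates were separate cultures, and p-values therefore reflect only how far these libraries scatter, which may be technical.

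NF-kB is a family of dimers that share a Rel homology domain, with which they pair and bind DNA. In resting cells inhibitors of the IkB family hold the dimers in the cytoplasm. Signals from cytokine and innate immune receptors activate the IkB kinase complex, which marks the inhibitors for destruction, and the freed dimers enter the nucleus. Among the genes that NF-kB induces are several of its own inhibitors and of its own subunits, so the transcripts of this family are often read as part of the output of the pathway as well as of its machinery. In the airway epithelium the pathway is known for driving chemokine and cytokine genes.

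The libraries held 35681162 to 45738439 reads, as recovered from the spacing of the FPKM values, and each member had between 356 reads (NFKBIE, sgH2AC19 replicate 3) and 11262 reads (TNIP1, sgControl replicate 2). The counting error alone at the fewest reads of a member ran from 1.26% for TNIP1 to 5.30% for NFKBIE, and covers neither amplification nor culture. The targeted gene H2AC19 and its near-identical copy H2AC18 were listed at 0 FPKM in all 6 libraries, so the direction of each comparison rests on the labels. The 8 epithelial markers summed to 838 to 869 FPKM in sgControl and 970 to 1016 in sgH2AC19, a sum carried mostly by KRT7, KRT8 and KRT18. All 8 were called, with EPCAM, KRT8, KRT18, CDH1 and MUC1 higher and KRT7, KRT19 and CLDN4 lower (CLDN4 reached 1 FPKM only in sgControl), and their part in the results was not tested. The 13 leukocyte markers summed to 3.00 to 3.69 and 3.28 to 4.54 FPKM, with CD3E, CD3D, MS4A1 and TYROBP at 0 throughout. Most of each sum was CD14, at 1.63 to 2.24 FPKM in sgControl and 2.14 to 3.16 in sgH2AC19. CD14 was not called (log2 fold change 0.29, limma adjusted p = 0.129). ITGAM reached 1.03 FPKM at most. The 7 endothelial markers summed to 0.534 to 1.05 and 0.682 to 0.781 FPKM, with none at 1 FPKM in any library. The 9 fibroblast markers summed to 4.56 to 5.10 and 6.73 to 7.34 FPKM, where LUM rose and COL1A1, at 1 FPKM or more only in sgH2AC19, could only have been called higher, and their part in the results was not tested. One library stood apart for these genes. SgH2AC19 replicate 3 was the lowest of its group for 9 of the 10 members (all but BCL3) and for 47.1% of the 12871 genes tested, and results that turn on it are given with and without it. In bulk RNA, fewer cells expressing a gene and less RNA per cell cannot be told apart.

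Several feedback inhibitor transcripts of NF-kB were lower in sgH2AC19. NFKBIA, NFKBIE, TNFAIP3 and TNIP1 fell, each to between 0.640 and 0.795 of its mean in sgControl. None of the 4 subunit genes was called, although NFKB2, RELB and RELA had all sgH2AC19 libraries below all sgControl libraries. NFKBIB and BCL3 had the higher mean in sgH2AC19 and were not called. By limma on log2(FPKM + 1), with Benjamini-Hochberg adjustment over all 12871 genes tested and a threshold of 0.05, 4 of 10 members were lower, where 11.0% of all genes tested were called lower. No member was called higher (0 of 10 also at an unadjusted p under 0.05 and by voom on recovered reads), where 12.0% of all genes were. At an unadjusted p under 0.05, 7 members were lower, as were 18.9% of all genes tested (18.6% were higher). Voom called 6 members lower, where it called 13.4% of genes lower and 14.1% higher. The median log2 fold change of the members was −0.31, against −0.005 over all genes tested. Without sgH2AC19 replicate 3 these medians were −0.21 and 0.007. The members were chosen with earlier results of these data known, so their direction is not independent evidence.

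**Figure D1:**
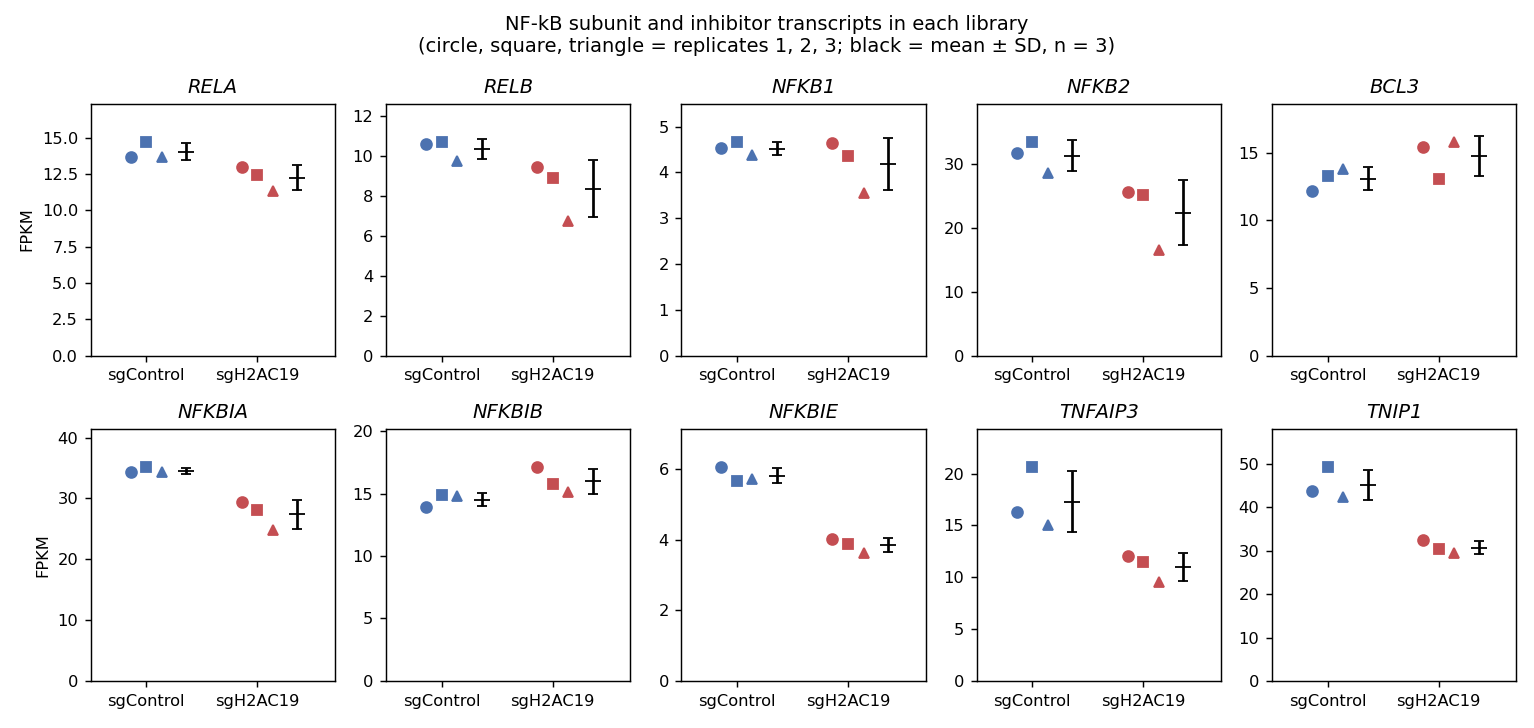
FPKM of each gene (vertical axis, from 0) in the 3 sgControl libraries (blue) and the 3 sgH2AC19 libraries (red), with circles, squares and triangles for replicates 1, 2 and 3 and the mean ± SD in black. The groups do not overlap for 8 genes, NFKBIB being the only one of these that is higher in sgH2AC19, and replicate 3 is the lowest red point in every panel except that of BCL3.

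In all, 7 members had non-overlapping groups with sgH2AC19 lower, where 21.7% of genes tested did. NFKBIB had non-overlapping groups with sgH2AC19 higher, as did 21.5% of genes tested. In NFKB1 and BCL3 the groups overlapped.

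Among the subunit genes, RELA encodes p65, the activating partner of the most common NF-kB dimer. RELA (ENSG00000173039, GRCh38 chromosome 11, 65653596 to 65663094, minus strand) was at 13.7, 14.7 and 13.7 FPKM in sgControl replicates 1 to 3 and at 13.0, 12.4 and 11.3 in sgH2AC19 replicates 1 to 3. The sgH2AC19 libraries were all lower, but by little. The means were 14.0 ± 0.578 and 12.2 ± 0.858 FPKM (SD, n = 3 each), and the log2 fold change was −0.19 (SE 0.0609, 95% interval −0.33 to −0.04, limma adjusted p = 0.0640). RELA passed the threshold with median-ratio scaling (limma adjusted p = 0.0434), with upper-quartile scaling (0.0496) and with voom on recovered reads (0.0402), and its adjusted p ran up to 0.189 over the 13 alternatives.

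NFKB1 encodes p105, which is trimmed to p50, the usual partner of p65. NFKB1 (ENSG00000109320, chromosome 4, 102501329 to 102617302, plus strand) was at 4.52, 4.66 and 4.37 FPKM in sgControl and at 4.63, 4.36 and 3.55 in sgH2AC19. Only replicate 3 lay below the sgControl range by more than the spread of that group. The log2 fold change was −0.10 (95% interval −0.29 to 0.10, limma adjusted p = 0.445), and without sgH2AC19 replicate 3 it was −0.00.

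NFKB2 encodes p100, itself an inhibitor until it is processed to p52 in the noncanonical branch of the pathway, and RELB is the partner that p100 holds back. NFKB2 (ENSG00000077150, chromosome 10, 102394110 to 102402529, plus strand) was the most abundant subunit transcript, at 31.8, 33.5 and 28.7 FPKM in sgControl and at 25.6, 25.2 and 16.5 in sgH2AC19. All sgH2AC19 libraries were lower, replicate 3 by far the most. The log2 fold change was −0.49 (SE 0.159, 95% interval −0.86 to −0.12, limma adjusted p = 0.0643), about that of NFKBIE, but with a spread in sgH2AC19 of 5.16 FPKM (SD) against 2.40 in sgControl. Without replicate 3 the log2 fold change of NFKB2 was smaller, −0.29, and was called (limma adjusted p = 0.0221). It was also called with voom on recovered reads (0.0175), and the adjusted p ranged up to 0.219 over the 13 alternatives.

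RELB (ENSG00000104856, chromosome 19, 45001430 to 45038198, plus strand) was at 10.6, 10.7 and 9.77 FPKM in sgControl and at 9.44, 8.89 and 6.73 in sgH2AC19. As with NFKB2, the groups did not overlap and replicate 3 was the lowest. The log2 fold change was −0.29 (95% interval −0.55 to −0.03, limma adjusted p = 0.0984), and −0.16 without replicate 3 (adjusted p = 0.0799, with a range of 0.0455 to 0.281 over the 13 alternatives). None of the 4 subunits passed limma's adjusted threshold, 3 were lower at an unadjusted p under 0.05, and 2 (NFKB2 and RELA) were called with voom on recovered reads, where 18.9% and 13.4% of all genes were lower by these rules. The remaining Rel gene, REL, which encodes c-Rel of lymphoid cells, was at 0.408 to 0.520 FPKM in the 6 libraries and was below the level tested.

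Within a library, a ratio of members does not depend on the scaling of that library. NFKB2 stood at 2.32, 2.28 and 2.10 times RELA in sgControl and at 1.97, 2.04 and 1.46 times RELA in sgH2AC19. RELB stood at 0.715 to 0.774 times RELA in sgControl and at 0.596 to 0.727 in sgH2AC19, with overlapping groups. The NFKB2 transcript was thus lower relative to RELA in every sgH2AC19 library than in any sgControl library.

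**Figure D2:**
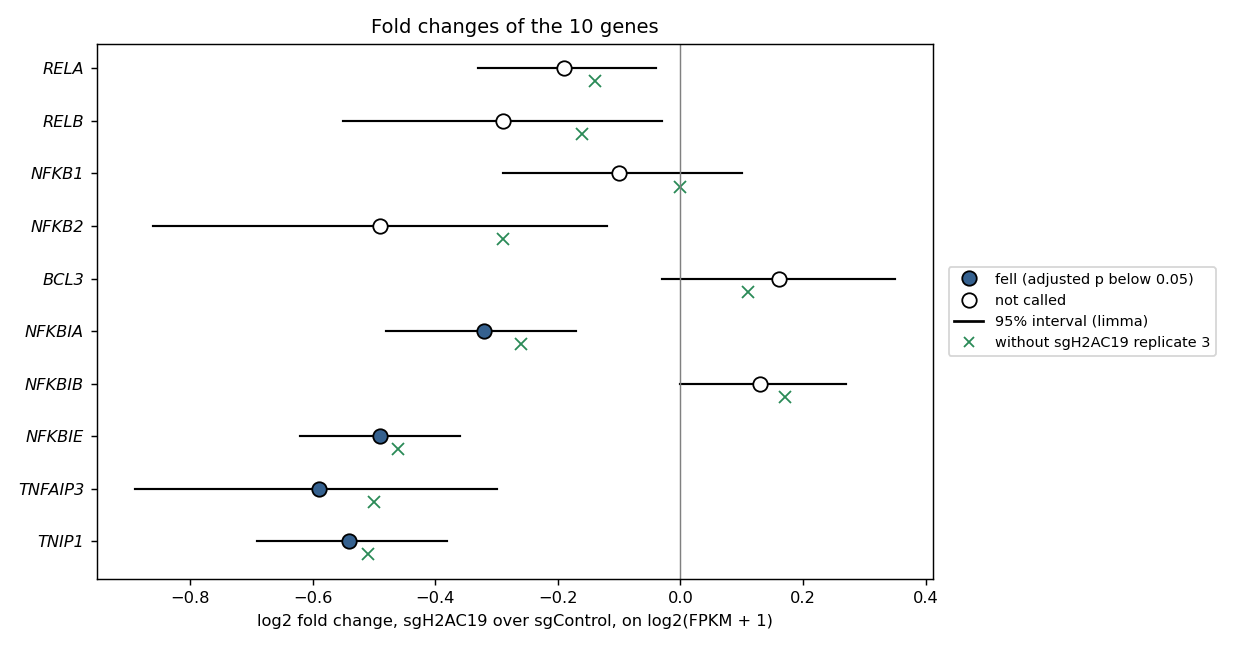
Log2 fold change of each gene, sgH2AC19 over sgControl on log2(FPKM + 1) (horizontal axis), with limma's 95% interval as a line, filled circles for the 4 genes that fell and open circles for the others. Green crosses are the fold changes without sgH2AC19 replicate 3, and the largest shifts are those of NFKB2, from −0.49 to −0.29, and RELB, from −0.29 to −0.16.

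Sequences around the starts of NFKBIA, TNFAIP3 and TNIP1 are shown because these genes fell and carry binding sites of NF-kB in textbook accounts of its feedback. RefSeq windows from 250 bases before to 50 bases after a gene's start (GRCh38.p14) were at hand for 8 members, 14 windows in all, and RELB and NFKBIE had no entry. The start meant here is RefSeq's, which can lie inside the gene span given elsewhere in this text. Examples are NFKB2, NFKBIB, TNFAIP3, TNIP1 and BCL3. A match before the RefSeq start can then also lie inside that span. The whole TNIP1 window printed below lies within the TNIP1 span. The 10-base kappaB consensus was searched on both strands, and capitals mark its matches, printed on the gene's strand. The first lies at chr14:35404700-35404999 on the minus strand, the second at chr6:137867009-137867308 on the plus strand, and the third at chr5:151080985-151081284 on the minus strand.
NFKBIA: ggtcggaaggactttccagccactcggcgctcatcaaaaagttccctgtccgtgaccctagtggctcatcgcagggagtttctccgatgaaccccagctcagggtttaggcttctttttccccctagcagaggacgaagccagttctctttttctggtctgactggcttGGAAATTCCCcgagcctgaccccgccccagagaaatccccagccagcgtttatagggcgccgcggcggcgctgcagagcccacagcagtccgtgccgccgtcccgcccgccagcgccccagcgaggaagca
TNFAIP3: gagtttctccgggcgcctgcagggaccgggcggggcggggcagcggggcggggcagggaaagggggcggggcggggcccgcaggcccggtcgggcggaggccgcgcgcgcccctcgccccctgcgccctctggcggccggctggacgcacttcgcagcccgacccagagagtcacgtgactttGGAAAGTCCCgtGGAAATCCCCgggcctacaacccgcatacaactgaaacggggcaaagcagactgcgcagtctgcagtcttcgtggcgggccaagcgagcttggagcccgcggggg
TNIP1: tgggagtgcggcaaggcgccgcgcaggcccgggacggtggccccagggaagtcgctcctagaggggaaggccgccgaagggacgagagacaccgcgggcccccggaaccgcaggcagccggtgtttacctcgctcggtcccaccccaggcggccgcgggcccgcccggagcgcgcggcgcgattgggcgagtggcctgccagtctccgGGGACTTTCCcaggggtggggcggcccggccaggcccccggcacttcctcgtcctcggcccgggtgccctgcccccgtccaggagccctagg

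The NFKBIA window holds 1 match, which begins 81 bases before the start, on the strand opposite to the gene. The TNFAIP3 window holds 2, at 67 and 55 bases before the start, both also on the strand opposite to the gene. The TNIP1 window holds 1, at 42 bases before the start, and its other window, further into the gene, holds 0. Matches were also found in the windows of members that were not called, printed here with 10 bases on either side to allow comparison. They lie at chr4:102501300-102501329 for NFKB1, at chr10:102394461-102394491, chr10:102394490-102394519, chr10:102395519-102395548 and chr10:102395674-102395703 for the windows of NFKB2, at chr19:38899931-38899961 for NFKBIB and at chr19:44748700-44748729 for BCL3, all on the plus strand. All of these lie before the RefSeq start of their window except that of BCL3, which begins 3 bases after it and is read on the opposite strand.
NFKB1: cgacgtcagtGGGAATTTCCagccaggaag
NFKB2, start 2, block 1: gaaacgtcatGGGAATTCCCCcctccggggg
NFKB2, start 2, block 2: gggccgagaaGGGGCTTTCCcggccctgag
NFKB2, start 3, block 1: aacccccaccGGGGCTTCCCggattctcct
NFKB2, start 3, block 2: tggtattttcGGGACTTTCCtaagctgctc
NFKBIB: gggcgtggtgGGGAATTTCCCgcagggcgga
BCL3: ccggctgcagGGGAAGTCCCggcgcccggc

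In the capital runs of 11 bases, of NFKB2 and NFKBIB, matches on both strands overlap. In all, 8 of the 14 member windows held a match, as did 5.91% of the 35116 windows of all genes, and 7 of the 8 members with an entry held one in some window (7.09% of all 27305 genes with an entry), the exception being RELA. A match was present in a window of the genes that fell and had an entry (NFKBIA, TNFAIP3 and TNIP1) and also of NFKBIB and, after the start, of BCL3, whose means were higher in sgH2AC19. A match is a description of these letters and not evidence of binding.

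Of the classical inhibitors NFKBIA and NFKBIE fell and NFKBIB was not called. NFKBIA encodes IkB alpha, the inhibitor that NF-kB resynthesises fastest after a stimulus. NFKBIA (ENSG00000100906, chromosome 14, 35401511 to 35404749, minus strand), whose upstream window is printed above, was at 34.3, 35.1 and 34.3 FPKM in sgControl and at 29.4, 28.1 and 24.8 in sgH2AC19. The sgControl libraries lay within 1 FPKM of one another and above all sgH2AC19 libraries. NFKBIA fell from 34.6 ± 0.475 to 27.5 ± 2.37 FPKM, with log2 fold change −0.32 (SE 0.0643, limma adjusted p = 0.0129). With sgControl replicate 2 left out it was no longer called (limma adjusted p = 0.0516, where the 13 alternatives ranged from 0.00308 to that value).

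NFKBIE encodes IkB epsilon, a slower feedback inhibitor. NFKBIE (ENSG00000146232, chromosome 6, 44258166 to 44265788, minus strand) was at 6.05, 5.66 and 5.73 FPKM in sgControl and at 4.03, 3.88 and 3.63 in sgH2AC19. The gap between the groups was several times the spread within either. NFKBIE fell from 5.81 ± 0.208 to 3.85 ± 0.202 FPKM, with log2 fold change −0.49 (SE 0.0540, limma adjusted p = 0.00166), and was called in all 13 alternatives.

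NFKBIB encodes IkB beta, a more slowly turned over inhibitor that is not counted among the strong NF-kB targets. NFKBIB (ENSG00000104825, chromosome 19, 38899700 to 38908893, plus strand) was at 13.9, 14.9 and 14.8 FPKM in sgControl and at 17.1, 15.8 and 15.1 in sgH2AC19. The groups did not overlap, but the lowest sgH2AC19 library and the highest sgControl library nearly touched. The log2 fold change was 0.13 (SE 0.0570, 95% interval −0.00 to 0.27, limma adjusted p = 0.138). In GENCODE 29 the gene overlaps SIRT2, which lies on the other strand and reached 6.12 FPKM, and without a stated strand setting reads in the overlap cannot be told apart.

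The make-up of the classical inhibitor transcripts differed between the groups. NFKBIA made up 63.2%, 63.0% and 62.6% of the summed FPKM of the 3 genes in sgControl and 58.2%, 58.8% and 56.9% in sgH2AC19. NFKBIB went the other way, from 25.7%, 26.8% and 26.9% to 33.8%, 33.1% and 34.7%. NFKBIE went from 11.2%, 10.2% and 10.5% to 7.97%, 8.11% and 8.33%. For none of the 3 shares did the groups overlap, and sgH2AC19 replicate 3 was not far from its group in any of them. The ratio of NFKBIA to NFKBIB was 2.38 ± 0.0727 in sgControl and 1.71 ± 0.0678 in sgH2AC19 (SD, n = 3 each). With 3 libraries in each group this description was not tested. The shares and the ratio depend on the gene length behind the FPKM, for NFKBIA 3394 bases against 2373 in GENCODE 29. At GENCODE 29 lengths the sgControl means would be 49.4 (NFKBIA), 14.5 (NFKBIB) and 5.81 FPKM (NFKBIE), and the share of NFKBIA would be larger.

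**Figure D3:**
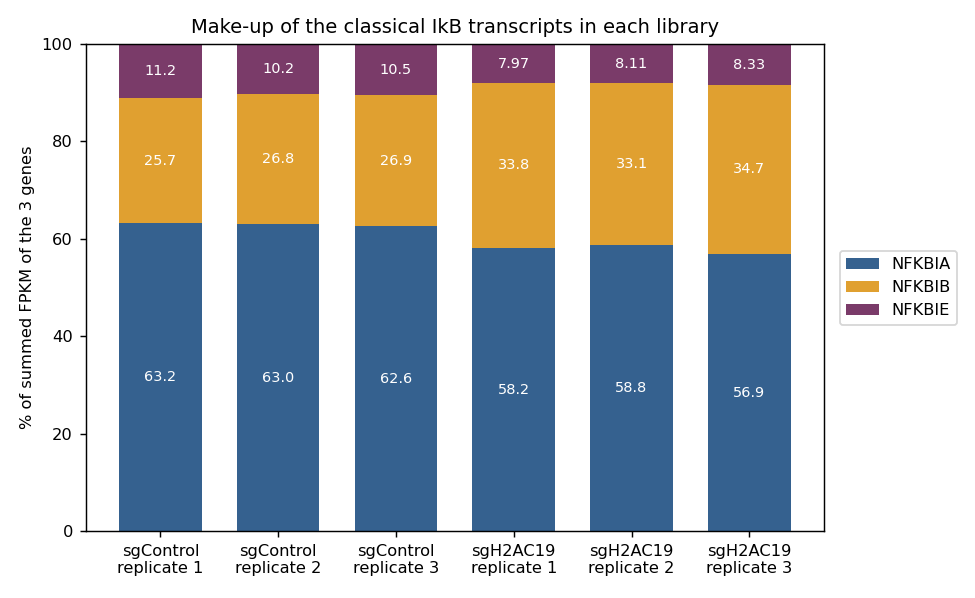
Share of NFKBIA, NFKBIB and NFKBIE in their summed FPKM (vertical axis, percent) in each of the 6 libraries, with the share printed in each bar segment. NFKBIA holds 62.6% or more in each sgControl library and 58.8% or less in each sgH2AC19 library, and NFKBIB holds 26.9% or less and 33.1% or more.

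TNFAIP3 encodes A20, a ubiquitin-editing enzyme that shuts off signalling upstream of the IkB kinase, and TNIP1 encodes ABIN1, a ubiquitin-binding partner of A20. Both fell, and both by more than NFKBIA in their estimates. TNFAIP3 (ENSG00000118503, chromosome 6, 137867188 to 137883312, plus strand) was at 16.3, 20.6 and 15.0 FPKM in sgControl and at 12.1, 11.5 and 9.52 in sgH2AC19. The groups were apart, with sgControl replicate 2 well above the other sgControl libraries. TNFAIP3 fell from 17.3 ± 2.94 to 11.1 ± 1.36 FPKM, with log2 fold change −0.59 (SE 0.126, limma adjusted p = 0.0165) and of −0.47 without sgControl replicate 2 (adjusted p = 0.0389, within a range of 0.00235 to 0.0757 over the 13 alternatives). Its call was lost when all genes above 0 FPKM were tested (0.0757).

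TNIP1 (ENSG00000145901, chromosome 5, 151029945 to 151093577, minus strand) was at 43.8, 49.2 and 42.5 FPKM in sgControl and at 32.4, 30.4 and 29.4 in sgH2AC19. Again sgControl replicate 2 was the highest, and the sgH2AC19 libraries lay close together. TNIP1 fell from 45.2 ± 3.54 to 30.8 ± 1.50 FPKM, with log2 fold change −0.54 (SE 0.0656, limma adjusted p = 0.00227), and was called in all 13 alternatives. Relative to RELA in the same library, TNIP1 was at 3.22 ± 0.121 in sgControl and 2.52 ± 0.0759 in sgH2AC19, TNFAIP3 at 1.23 ± 0.157 and 0.903 ± 0.0517, NFKBIE at 0.415 ± 0.0282 and 0.315 ± 0.00575 and NFKBIA at 2.47 ± 0.0663 and 2.25 ± 0.0410 (SD, n = 3 each). The groups did not overlap in these ratios, which are a description only, since the 4 genes were taken because they had been called lower.

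BCL3 encodes a nuclear member of the IkB family that binds p50 and p52 homodimers and can act as a coactivator. BCL3 (ENSG00000069399, chromosome 19, 44747705 to 44760044, plus strand) was at 12.2, 13.3 and 13.8 FPKM in sgControl and at 15.4, 13.1 and 15.8 in sgH2AC19. The second sgH2AC19 library lay within the sgControl range. The log2 fold change was 0.16 (SE 0.0795, 95% interval −0.03 to 0.35, limma adjusted p = 0.187), and BCL3 was the only member for which sgH2AC19 replicate 3 was the highest of its group.

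Ordered by mean FPKM in sgControl, the members ran TNIP1, NFKBIA, NFKB2, TNFAIP3, NFKBIB, RELA, BCL3, RELB, NFKBIE and NFKB1. In sgControl the ranges of NFKBIB and RELA overlapped, as did those of RELA and BCL3, and the other neighbours were apart. In sgH2AC19 TNFAIP3 had moved below NFKBIB, BCL3 and RELA, and NFKBIE below NFKB1, although the ranges of TNFAIP3 and RELA overlapped there, as did those of NFKBIE and NFKB1. These levels depend on the gene length behind the FPKM. Whole reads were obtained for NFKB1 at a length of 15679 bases, whereas the exons annotated in GENCODE 29 cover 6257, and for NFKBIA at 3394 against 2373. At the GENCODE 29 lengths the mean level of NFKB1 would be 11.3 FPKM in sgControl rather than 4.52, and that of NFKBIA 49.4 rather than 34.6, above TNIP1. The fold changes do not depend on this length, apart from the added 1 FPKM.

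The genes whose pattern was closest to a called member were found by the root mean square distance of log2(FPKM + 1), centred on each gene's mean, over the 6 libraries. For NFKBIE these were MLKL, NFE2L3, EEIG1, ELOVL4 and PLEKHG5, at distances of 0.0277 to 0.0383 on the log2 scale. MLKL, the effector of necroptosis, had a log2 fold change of −0.52 (limma adjusted p = 0.00106). For TNIP1 they were PTPRH, AMPD3, MAFF, ZFP36 and SPNS2, at distances of 0.0334 to 0.0482. ZFP36, which encodes the mRNA decay factor tristetraprolin, went from a mean of 37.6 to 25.0 FPKM (log2 fold change −0.58, limma adjusted p = 0.00356).

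Genes on either side of the members in the pathway were read from 4 lists. Over all genes tested 12.0% rose and 11.0% fell. Of 17 genes for receptors 9 were tested, 2 rose (22.2%) and 1 fell (11.1%), with a median log2 fold change of 0.02. IL1R1, the signalling receptor for interleukin-1, rose from 4.54 ± 0.205 to 9.28 ± 1.62 FPKM (log2 fold change 0.88, limma adjusted p = 0.00220). LTBR, the lymphotoxin receptor that feeds the noncanonical branch, rose from 21.0 ± 1.17 to 27.9 ± 1.24 FPKM (0.40, adjusted p = 0.00384). TNFRSF12A, the receptor for TWEAK, fell from 43.9 ± 0.800 to 34.3 ± 1.08 FPKM (−0.35, adjusted p = 0.00223). All of these were called in all 13 alternatives.

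Of 31 adaptor and kinase genes 29 were tested, 3 rose (10.3%) and 4 fell (13.8%), with a median of −0.08, shares near the 12.0% and 11.0% of all genes tested. The IkB kinase genes themselves were not called. CHUK (IKK alpha) was at 10.8 ± 0.221 and 9.55 ± 0.567 FPKM (log2 fold change −0.17, limma adjusted p = 0.0615, and called in 4 of the 13 alternatives, with voom at 0.0390, without sgH2AC19 replicate 2 at 0.0413 and with upper-quartile or median-ratio scaling at 0.0473 or 0.0478). IKBKB (IKK beta) was at 6.51 ± 0.0472 and 5.91 ± 0.407 (−0.12, adjusted p = 0.159). IKBKG, the regulatory subunit, was at 1.57 ± 0.0790 and 1.58 ± 0.316 (adjusted p = 0.997), a value that is uncertain because a near-identical pseudogene can share its reads. MAP3K14, the kinase NIK of the noncanonical branch, was at 6.21 ± 0.438 and 5.21 ± 0.574 (−0.22, adjusted p = 0.0945), and was called without sgH2AC19 replicate 3 (−0.28, adjusted p = 0.0386).

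Among the adaptors that were called, BCL10, a scaffold upstream of the IkB kinase, fell from 9.36 ± 0.387 to 7.12 ± 0.319 FPKM (log2 fold change −0.35, limma adjusted p = 0.00472). The ubiquitin-conjugating enzyme gene UBE2D3 fell by 0.22 on the log2 scale, and the interleukin-1 and Toll-like receptor adaptor gene MYD88 by 0.34. TRAF3, an adaptor that restrains NIK, rose from 4.52 ± 0.254 to 6.04 ± 0.202 FPKM (0.35, adjusted p = 0.00520), and TAB1, which activates the kinase TAK1, rose by 0.36. MYD88 was not called once sgControl replicate 2 was left out (adjusted p = 0.0545), nor was TAB1 without sgControl replicate 1 or 2 or sgH2AC19 replicate 1 or 2 (adjusted p from 0.0624 to 0.0669). With every gene above 0 FPKM tested, neither was called (limma adjusted p = 0.0530 for MYD88 and 0.0830 for TAB1). TAB3, lower, and CARD10, higher, completed the calls and were picked out for naming with their values in view, and their calls failed in 7 and 6 of the 13 alternatives (highest adjusted p 0.103 and 0.125). Without sgControl replicate 1 or sgH2AC19 replicate 1 the list had 3 falls and 1 rise, and without sgControl replicate 2 it had 2 falls and 1 rise.

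Of 22 other Rel, IkB and feedback genes 19 were tested, 5 fell (26.3%) and 2 rose (10.5%), with a median of −0.04. Of all genes tested 11.0% fell and 12.0% rose. TNIP2, which encodes the A20 partner ABIN2, fell from 10.5 ± 0.557 to 8.15 ± 0.329 FPKM (log2 fold change −0.33, limma adjusted p = 0.00695). NFKBIZ, for the nuclear inhibitor IkB zeta, fell from 12.0 ± 0.585 to 9.62 ± 0.730 (−0.30, adjusted p = 0.0175). The NF-kB-induced adaptor gene TRAF1 fell from 4.92 ± 0.359 to 2.72 ± 0.923 (−0.70, adjusted p = 0.0237), lowest in sgH2AC19 replicate 3 at 1.83, and without that library its log2 fold change was −0.52 (limma adjusted p = 0.0189). CYLD, a deubiquitinase, and NFKBID, a nuclear IkB protein at 1.28 ± 0.0327 and 0.875 ± 0.131 FPKM, completed the falls and were picked out for naming with their values in view. Of these 5 falls TNIP2 was called in all 13 alternatives, and the others in 9 (NFKBIZ), 8 (TRAF1), 8 (CYLD) and 5 (NFKBID), with highest adjusted p-values of 0.0650, 0.106, 0.103 and 0.137. The falls numbered 1 without sgControl replicate 1, 1 without replicate 2, 2 without replicate 3, and 3 without sgH2AC19 replicate 1 or 2. In the same refits the falls over all genes went from 1422 to 697, 609, 658, 1056 and 940. The genes of this list that rose, ANKRD1 (0.65) and TRIB3 (0.46), are better known as a muscle-stress and YAP-regulated gene and as a target of the amino acid stress response.

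NF-kB target genes had the lowest median of the 4 lists. Of 40 listed 33 were tested, 14 fell (42.4%, where 11.0% of all genes tested fell) and 2 rose (6.06%, where 12.0% rose). The median log2 fold change was −0.35, and −0.27 without sgH2AC19 replicate 3. This list was drawn up with results on these libraries known, so its direction is not independent evidence. BIRC3, an inhibitor of apoptosis that also ubiquitinates NIK, was at 53.9, 57.1 and 50.1 FPKM in sgControl and 26.4, 27.8 and 26.0 in sgH2AC19 (log2 fold change −0.98, SE 0.0574, limma adjusted p = 0.000243). Replicate 3 was close to the other sgH2AC19 libraries here. The chemokine genes CXCL3 and CXCL5 changed by −1.41 and −1.48 on the log2 scale (adjusted p = 0.00251 and 0.00260), and both were lowest in sgH2AC19 replicate 3. Without that library the log2 fold changes were −1.21 for CXCL3 and −1.24 for CXCL5 (limma adjusted p = 0.0010 and 0.000363). The genes that rose were the complement gene C3 (0.51, adjusted p = 0.00182) and MAP3K8 (0.34, adjusted p = 0.00250), a kinase that p105 binds. CSF2 and IL1A were at 1 FPKM or more only in sgControl, so they could not have been called higher. The falls numbered 8, 7 and 8 without sgControl replicate 1, 2 or 3 in turn, and 7 if every gene above 0 FPKM entered the test. With an sgControl library left out CSF2 and IL1A no longer passed the filter, and 31 target genes were tested. Without sgH2AC19 replicate 3 there were 17 falls and 6 rises, against 1645 and 1784 over all genes. With all 6 libraries 1422 genes fell and 1545 rose. The falls over all genes numbered 697, 609 and 658 without sgControl replicate 1, 2 or 3 in turn. They numbered 653 with every gene above 0 FPKM tested.

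**Figure D4:**
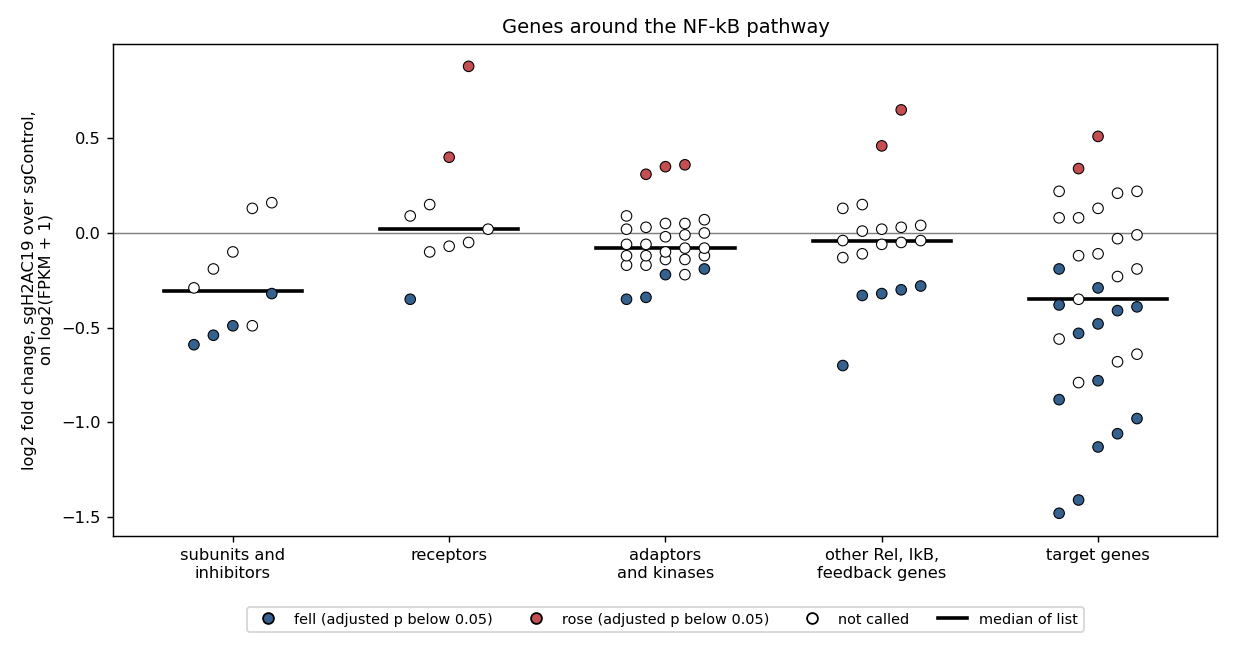
Log2 fold change on log2(FPKM + 1) (vertical axis) of each tested gene in the 10 members and in the 4 pathway lists, with blue for genes that fell, red for genes that rose, white for genes not called and a bar at each list's median. The medians are −0.31 for the members and −0.35 for the target genes, and 0.02, −0.08 and −0.04 for the other lists.

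The kappaB consensus was found in a window of 17 of the 34 target genes that had a promoter entry and of 0 of 13 receptor genes. Of all genes with an entry, 7.09% held one. Of the tested target genes, 7 of the 14 with a match and 5 of the 14 without one fell, so genes that fell were found on both sides. Among the other Rel, IkB and feedback genes, 3 of 3 with a match and 2 of 16 without one fell. For the adaptor and kinase genes these were 1 of 3 and 3 of 22. The 6 tested receptor genes with an entry had no match, and 0 of them fell. Whether a match goes with a fall was not tested.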

How the data were processed

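RNA from 6 A549 samples, 3 sgControl and 3 sgH2AC19, was extracted with a column kit and made into SMARTer mRNA-seq libraries, per the labels' protocols. The authors deposited FPKM values, 1 column per library, per the file headers; columns headed sgNC were matched to sgControl. The aligner was not given in the sources used here, nor were the counter and annotation. Builds named in the submitters' processing notes, GRCm38 and mm10, are of the mouse, whereas all 62700 gene IDs matched human symbols. No pair of libraries held identical values (0 pairs).

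Read totals were recovered from the spacing of the deposited FPKM with exon lengths of GENCODE 29, and for 12869 of the 12871 tested genes they were whole to within 0.001 reads: 3759 genes at the annotated length, 9110 at the smallest length that worked. Genes reaching 1 FPKM in 3 or more libraries entered a limma 3.58.1 fit (R 4.3.3, variance trended on the mean) of log2(FPKM + 1), which understates changes of low genes. P-values are two-sided and Benjamini-Hochberg adjusted over all genes tested. Means and SDs are of FPKM. The fit was tested on simulated data with independent noise in each gene and library, which hold no shift of a whole library. Alternatives were median-ratio and upper-quartile scaling, a pseudocount of 0.1, no filter, a filter on the mean, voom on recovered reads, the replicate number as a block, and each library left out.

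The members, the 4 pathway lists, the markers of epithelial, leukocyte, fibroblast and endothelial cells and the naming rule were chosen with earlier results of these data known. The rule names all members, up to 5 called genes per pathway list with the smallest adjusted p, REL and the IkB kinase genes with MAP3K14, and the 5 nearest patterns of the 2 called members with the smallest adjusted p. Promoter windows are RefSeq's, GRCh38.p14.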

Additional observations from a re-analysis of the deposited data

How the results depend on the processing

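The 10 members gave the same direction in all 130 refits (13 alternatives for each), and 121 of these left the call as it was. A change of filter or the replicate block cannot alter a fold change in this design, so those refits could not reverse a direction. All refits draw on the same 6 libraries. The members called numbered 3 to 5 with 1 library left out, 3 with every gene above 0 FPKM tested, and 6 with voom on recovered reads, always lower in sgH2AC19. Over all genes the count of 2967 was 1553 with every gene above 0 FPKM tested and ran from 1513 to 3429 with 1 library left out (1663, 1513 and 1632 without sgControl replicate 1, 2 or 3, and 1965 without sgH2AC19 replicate 2). The count of 33 in the 4 pathway lists was 19 with every gene above 0 FPKM tested and ran from 18 to 40 with 1 library left out (20 and 18 without sgControl replicate 1 or 2). The log2 fold change of IKBKG, 0.00, changed sign, to −0.00146 (median-ratio scaling), −0.00119 (upper-quartile scaling), −0.01 (pseudocount 0.1), −0.02 (without sgControl replicate 1), and −0.07 and −0.04 (without sgH2AC19 replicate 1 or 2). Of 338 refits of pathway genes 285 kept direction and call. Same-numbered libraries of the groups correlated in their deviations from the group means at 0.0524, 0.0346 and 0.0602 over 12871 genes. Each was higher than with any other number, but under 0.1. The labels state no pairing, and whether same-numbered libraries were handled together was not tested. With the replicate number as a block 6 members were called, NFKB2 (limma adjusted p = 0.0239) and RELB (0.0455) in addition, and 2729 genes in all. At 356 to 11262 reads per member, counting error limits NFKBIE most.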
